A study of Mus musculus with 77 samples.

Results

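The 6 genes described here, Gad1, Gad2, Slc32a1, Gabra2, Gabrb1 and Gabbr1, make GABA, load it into synaptic vesicles or receive it. They were taken by symbol from the AGO2 mRNA table of the BNST (bed nucleus of the stria terminalis, a limbic forebrain region tied to anxiety), and all 6 were among its 16587 genes. AGO2 is the Argonaute protein that carries miRNAs and their target mRNAs, and immunoprecipitating it before sequencing collects the mRNAs held in that complex. No library of total BNST mRNA was analysed here, so a difference in AGO2 binding and a difference in mRNA abundance cannot be told apart.

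All BNST samples came from male C57BL/6Crl mice (B6), aged 8 weeks at dissection, and each library held the BNST tissue of 3 mice pooled. Control mice had not been defeated. The other mice had passed through chronic social defeat stress (CSDS), repeated confrontation with an aggressive CD-1 male, and were divided by their social approach into resilient mice, which still sought contact, and susceptible mice, which avoided it. Tissue was taken 6 to 8 days after the CSDS had ended, and the AGO2 mRNA data held 5 control, 5 resilient and 4 susceptible pools.

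GABA is the main inhibitory transmitter of the adult brain, and most BNST neurons use it. The enzymes GAD67 (Gad1) and GAD65 (Gad2) make it from glutamate, and the vesicular transporter VGAT (Slc32a1) fills synaptic vesicles with it. GABA-A receptors are chloride channels assembled from several subunits, among them alpha 2 (Gabra2) and beta 1 (Gabrb1), whereas GABA-B receptors are slower and coupled to G proteins, with Gabbr1 encoding the subunit that binds GABA. Benzodiazepines act on GABA-A receptors, and alpha 2 is among the subunits through which they relieve anxiety in mice.

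The pools held 3701281 to 10659882 reads over all genes, and each of the 6 genes had at least 124 reads in every pool. Marker genes were looked at beside the tissue label. The mRNA table kept only genes above a low read threshold, so reads in a marker cannot by themselves check that label. Each of the 8 BNST markers measured (among them Crh, Esr1 and Cartpt, with Prkcd and Sst, which also stand in the GABA list below) had reads in every group, and so did each of the 10 markers of striatal projection neurons, the main cell type of the neighbouring striatum. Markers of choroid plexus and ependyma were also present, and their sum, as log2 of CPM (reads scaled to library size), ran from 4.24 to 7.68 over the pools. In control pools the mean of such sums was 7.94 for the BNST markers and 11.47 for the striatal markers.

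In the GRCm38 genome (GENCODE M21) Gad2 lies on chr2:22622205-22693874, Gad1 on chr2:70553072-70602014 and Slc32a1 on chr2:158610767-158615748, all on the plus strand. The receptor genes Gabra2 (chr5:70957597-71095849, minus strand) and Gabrb1 (chr5:71658113-72149037, plus strand) belong to 1 cluster of 4 GABA-A subunit genes that spans 1398 kb and also holds Gabrg1 and Gabra4. Gabbr1 lies on chr17:37045966-37075067, plus strand. The starts of Gabra4 and Gabrb1 overlap by 196 bases on opposite strands. The library kit keeps strand, but the strand setting of the counting is not given in the sources used here, so reads from these 196 bases cannot be assigned to 1 of the 2 genes.

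Levels of different genes were compared as log2 CPM per kb of annotated exon sequence. In control pools Gabbr1 was highest at 6.04 ± 0.03 (SD, n = 5), followed by Gad2 at 5.64 ± 0.13, Gad1 at 5.39 ± 0.06, Gabra2 at 5.09 ± 0.24, Slc32a1 at 4.39 ± 0.29 and Gabrb1 at 4.01 ± 0.36. Each of the first 4 steps in this order was seen in 5 of 5 control pools. The last was not, since Slc32a1 exceeded Gabrb1 in 3 of 5 pools and their log2 difference of 0.38 ± 0.64 was smaller than its SD. Among the resilient pools Gad2 exceeded Gad1 per kb in 1 of 5, and among the susceptible pools in 2 of 4, so that the order of the enzymes seen in controls was not kept. Gabrb1 ranked last on this scale although it had more reads than Slc32a1, because its annotated exons cover 13838 bases against 2797.

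As AGO2 reaches mRNAs mostly through miRNAs that pair with the 3′ UTR, the longest annotated 3′ UTR of each gene was searched for matches to the most abundant AGO2 miRNAs. The 3′ UTRs differed widely. Slc32a1 had 744 bases, Gad1 1218, Gabbr1 2041, Gad2 3528, Gabra2 4205 and Gabrb1 12228, and that of Gabrb1 was longer than those of 99.9% of the 13866 genes with an annotated 3′ UTR. Of the 20 miRNAs with the highest mean level in control pools, 17 had a mature sequence in the RefSeq table (GRCm38.p6), and 15 of these matched at least 1 of the 6 genes with bases 2 to 8, the seed. The others, miR-30d-5p, miR-143-3p and miR-328-3p, were not searched. miR-128-3p, which matched the most of the 6 genes, examples of 2 families that matched 2 of them each (miR-30 and let-7), and the single match of Slc32a1 are shown 5′ to 3′ with the seed in capitals, to be read against the sites that follow:
miR-128-3p: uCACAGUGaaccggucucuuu
miR-30a-5p: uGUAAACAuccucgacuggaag
miR-30e-5p: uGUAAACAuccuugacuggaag
let-7e-5p: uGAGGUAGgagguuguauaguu
miR-92b-3p: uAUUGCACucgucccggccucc

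miR-22-3p and miR-541-5p, not shown, also matched 2 genes each, Gabrb1 and Gabbr1. miR-30a-5p and miR-30e-5p share 1 seed, and let-7e-5p shares its seed with let-7b-5p, let-7d-5p, let-7g-5p and let-7i-5p. Because miR-128-3p matched 5 of the 6 genes, 1 site of each is shown. Each is the strand of the mRNA over 22 bases (GRCm38), and capitals mark the bases that pair with the seed, plus an A opposite the first base of the miRNA where there is one:
Gad1, chr2:70601941-70601962, plus strand: agacatgaaacccaCACTGTGc
Gad2, chr2:22693642-22693663, plus strand: gtgctaaatgcaaaCACTGTGt
Gabra2, chr5:70959736-70959757, minus strand: ttcaagtatgatttCACTGTGt
Gabrb1, chr5:72146048-72146069, plus strand: gaaacaactctgtcCACTGTGA
Gabbr1, chr17:37074218-37074239, plus strand: cagcatccctttcaCACTGTGg

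The receptor subunits Gabra2 and Gabrb1 also shared the miR-30 seed, Gad1 and Gabrb1 shared the let-7 seed, and Slc32a1 carried 1 match, to miR-92b-3p:
Gabra2, miR-30, chr5:70960578-70960599, minus strand: attctcttctttccTGTTTACt
Gabrb1, miR-30, chr5:72137051-72137072, plus strand: tccaccaattgcttTGTTTACA
Gad1, let-7, chr2:70601208-70601229, plus strand: ctgttggtgggaggCTACCTCc
Gabrb1, let-7, chr5:72145313-72145334, plus strand: caaagacaaagtttCTACCTCt
Slc32a1, miR-92b-3p, chr2:158615585-158615606, plus strand: cccaaactcatcttGTGCAATg

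In all, 27 match positions were found, of which 16 were in Gabrb1, 3 each in Gad1, Gabra2 and Gabbr1, and 1 each in Gad2 and Slc32a1. Gabrb1, with the longest 3′ UTR, held the most matches, but among the other 5 genes the count did not follow length, since Gad2 held 1 in 3528 bases and Gad1 held 3 in 1218. The letters CACTGTG were present in 23.4% of all 3′ UTRs on the mRNA strand, but in 84.7% of the 59 whose length was within 25% of that of Gabrb1, and in 20.7% of those similar in length to that of Gad1. TGTTTAC was in 16.8% of all 3′ UTRs, CTACCTC in 10.8% and GTGCAAT in 7.9%. Among 3′ UTRs similar in length to that of Gabrb1, TGTTTAC was in 69.5% and CTACCTC in 47.5%. TGTTTAC was in 35.7% of those similar in length to that of Gabra2. CTACCTC was in 9.0% of those like Gad1 in length, and GTGCAAT in 4.0% of those like Slc32a1. A match of letters is a description of the sequence and not a site shown to be bound.

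**Figure D1:**
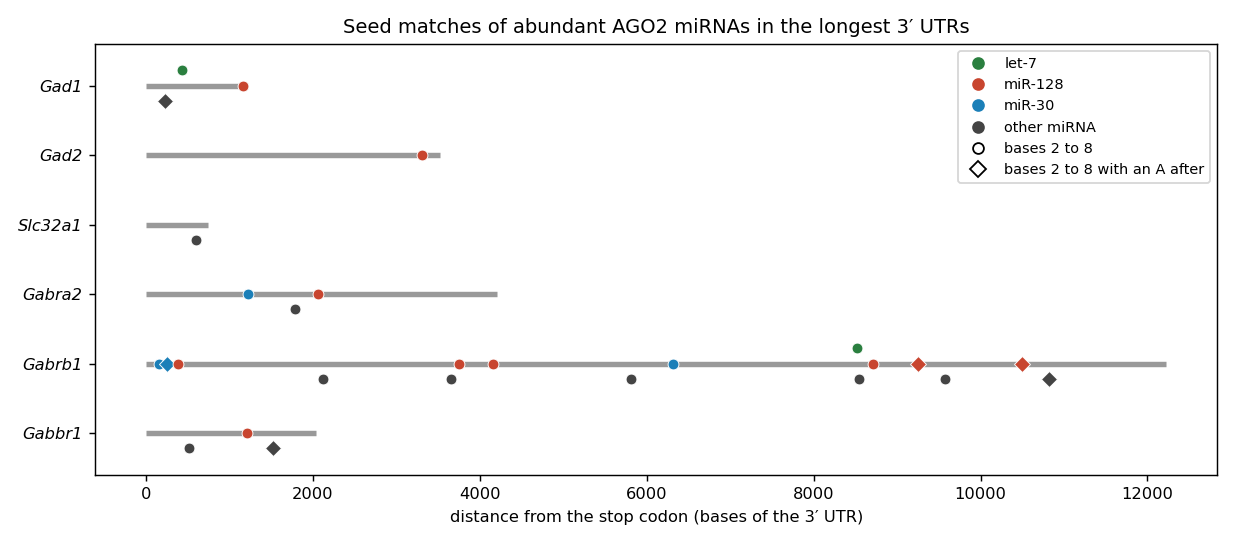
Positions of seed matches to the abundant AGO2 miRNAs in the longest annotated 3′ UTR of each gene; the x axis is the distance from the stop codon in bases, grey bars are the 3′ UTRs, and colours mark miRNA families (raised or lowered from the bar where positions are close). Gabrb1 holds 16 of the 27 positions, and a miR-128 match is present in every gene except Slc32a1.

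The comparisons ask whether AGO2-bound mRNA of these genes differed between stressed and control mice, and between the 2 outcomes of the stress. A gene was called where the limma p was under 0.05 and the fold change at least 1.2, the criteria of the study, and adjusted p-values are limma p-values corrected by the Benjamini-Hochberg method over all 16587 genes. In resilient against control pools 17.7% of all genes were called, 8.65% as higher and 9.04% as lower, and 1.95% had an adjusted p under 0.05. Of the 6 genes, 2 were called, both lower (Gabra2 and Gabrb1), and none passed the adjusted threshold. In susceptible against control pools 18.9% of all genes were called, 9.65% as higher and 9.28% as lower, and 4.02% passed the adjusted threshold. Here 3 of the 6 were called, all lower (Slc32a1, Gabra2 and Gabrb1), and 1 of them, Gabra2, passed the adjusted threshold. Both comparisons use the same control pools. In susceptible against resilient pools 2.14% of all genes were called, 0.953% as higher and 1.19% as lower, and 0% passed the adjusted threshold by limma, with 401 genes at an unadjusted p under 0.05. None of the 6 genes was called there. The median log2 fold change of the 6 genes was -0.32, -0.36 and -0.08 in the 3 comparisons, beside -0.02, -0.01 and 0.01 over all genes.

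**Figure D2:**
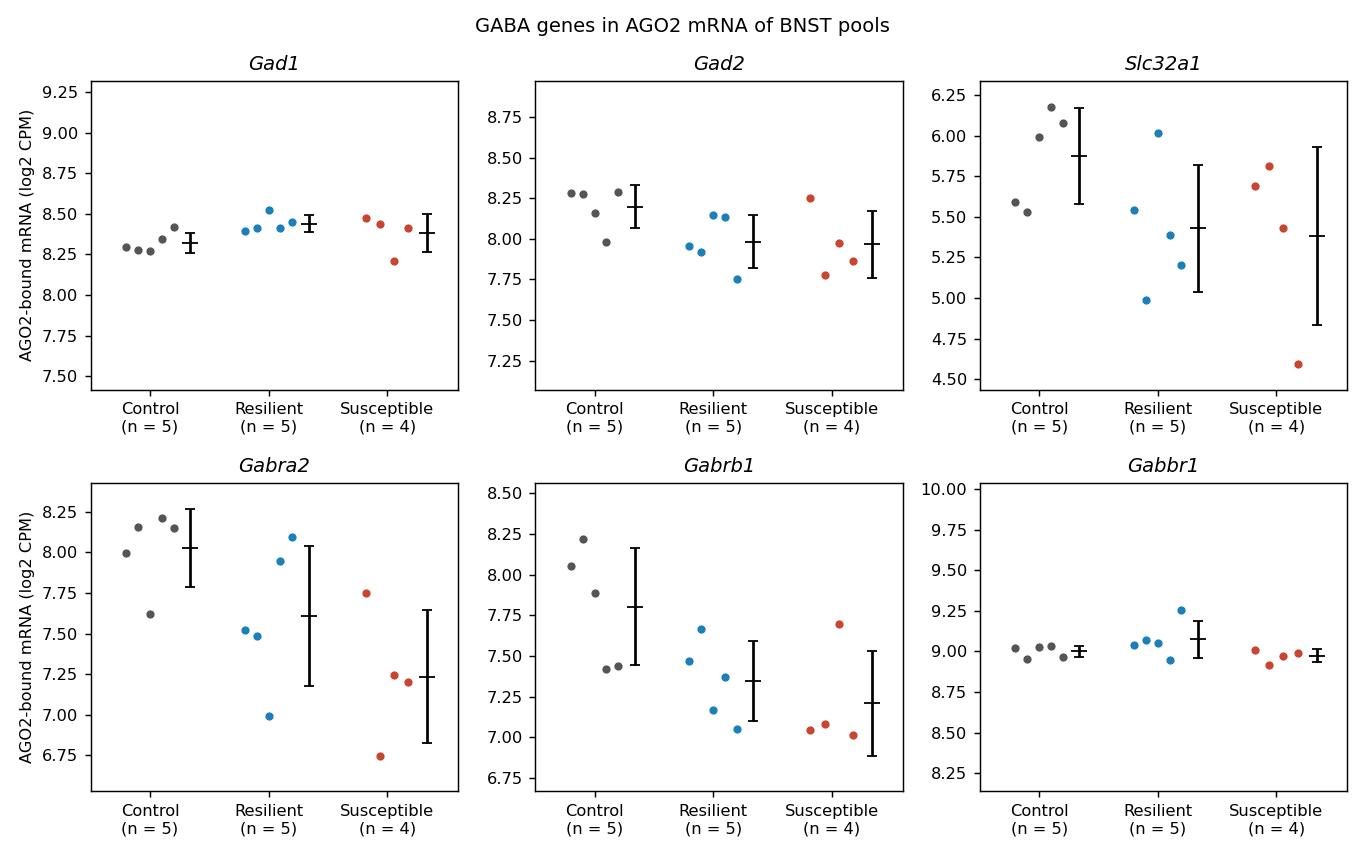
AGO2-bound mRNA level (log2 CPM) of the 6 genes in each BNST pool; points are pools, and bars give the group mean and SD, with every panel spanning the same log2 range. Gad1 and Gabbr1 vary little, whereas Gabra2, Gabrb1 and Slc32a1 lie lower in most stressed pools, with overlap between groups in each panel.

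Gad1, the enzyme that supplies most of the GABA of the cell, was among the steadiest of the 6. Its log2 CPM was 8.29, 8.27, 8.27, 8.35 and 8.42 in control pools 1 to 5, then 8.40, 8.42, 8.52, 8.41 and 8.45 in the resilient pools and 8.47, 8.44, 8.21 and 8.41 in the susceptible pools. All resilient pools were above the control mean, but the highest control pool exceeded 3 of them. The resilient pools differed from control by a log2 fold change of 0.12 (95% confidence interval -0.04 to 0.28, limma adjusted p = 0.376), although a two-sided exact permutation test over these pools alone gave p = 0.0317. For susceptible against control pools the log2 fold change was 0.06 (-0.10 to 0.23, adjusted p = 0.687). Neither was called, and a log2 rise of up to 0.28 in the resilient pools lies within the interval.

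Gad2, the enzyme anchored at synaptic vesicles, was lower in most stressed pools without being called. The control pools had log2 CPM of 8.28, 8.28, 8.16, 7.98 and 8.29, the resilient pools 7.96, 7.92, 8.14, 8.14 and 7.75, and the susceptible pools 8.25, 7.78, 7.98 and 7.86. All 5 resilient and 3 of 4 susceptible pools were below the control mean, yet control pool 4 lay among them. The log2 fold changes were -0.22 (-0.44 to 0.00, adjusted p = 0.248) in resilient and -0.23 (-0.46 to 0.00, adjusted p = 0.241) in susceptible pools. Exact permutation tests gave p = 0.0556 and p = 0.0714. Without control pool 4 both differences met the call criteria, at -0.27 and -0.29, and without susceptible pool 1 the susceptible difference did so at -0.33.

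Since both enzymes were measured in the same libraries, the log2 level of Gad2 minus that of Gad1 was also taken within each pool, a quantity chosen after the values had been seen and therefore not tested. It was -0.01, 0.00, -0.11, -0.36 and -0.13 in the control pools, -0.44, -0.50, -0.38, -0.28 and -0.69 in the resilient pools and -0.22, -0.66, -0.23 and -0.55 in the susceptible pools. Its mean was -0.12 ± 0.15 in control, -0.46 ± 0.16 in resilient and -0.42 ± 0.22 in susceptible pools. All 9 stressed pools were below 4 of the 5 control pools, while control pool 4 fell among them. Such a difference within a library does not depend on how libraries are scaled.

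Slc32a1, the vesicular GABA transporter, had the lowest read count of the 6 and the widest spread in susceptible pools. Its log2 CPM was 5.59, 5.53, 5.99, 6.18 and 6.08 in control pools, 5.54, 4.99, 6.02, 5.39 and 5.21 in resilient pools and 5.69, 5.81, 5.43 and 4.59 in susceptible pools. Resilient pools 1 and 3 and susceptible pools 1 and 2 lay within the control range, and the other 5 stressed pools were below it. The susceptible pools were called lower by a log2 fold change of -0.49 (-0.98 to -0.01, adjusted p = 0.230, exact permutation p = 0.0952). Without susceptible pool 4 the value was -0.23 and no longer met the criteria, and leaving out any of 7 other pools also ended the call. It was kept in 4 of 9 other alternative fits, and ended at values from -0.50 to -0.42 with plain totals, a filter on low genes, no variance trend, voom weights or a replicate block. The resilient difference of -0.44 (-0.90 to 0.02, adjusted p = 0.258) was of like size but not called.

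Gabra2, the alpha 2 subunit of the GABA-A receptor, showed the widest difference of the 6 genes in susceptible against control pools. Its log2 CPM was 7.99, 8.15, 7.62, 8.21 and 8.15 in control pools, 7.52, 7.49, 6.99, 7.95 and 8.09 in resilient pools and 7.75, 6.74, 7.25 and 7.20 in susceptible pools. Every susceptible pool was below the control mean, and 3 of the 4 were below all control pools, but susceptible pool 1 exceeded control pool 3. In susceptible pools Gabra2 was 1.73-fold lower than in controls, a log2 fold change of -0.79 (-1.23 to -0.36, SE 0.21, adjusted p = 0.0411, exact permutation p = 0.0238). It met the call criteria in every alternative fit of this comparison, with values from -0.96 to -0.63 when single pools were left out. Its adjusted p ran from 0.0115 to 0.172 over these fits and exceeded 0.05 without any 1 of 8 pools (control pools 1, 2, 4 and 5, resilient pool 1, susceptible pools 2, 3 and 4).

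In resilient pools Gabra2 was called lower at -0.42 (-0.83 to -0.01, adjusted p = 0.233, exact permutation p = 0.0635). Resilient pools 4 and 5 lay within the control range. The call ended when any of 9 single pools was left out, with the smallest value, -0.26, without resilient pool 3. Susceptible and resilient pools differed by -0.37 (-0.81 to 0.06, adjusted p = 1.00, exact permutation p = 0.214), so the larger drop against controls in susceptible pools was not shown to differ from that in resilient pools.

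Gabrb1, the beta 1 subunit, was lower in both stressed groups. The control pools had log2 CPM of 8.05, 8.22, 7.89, 7.42 and 7.44, the resilient pools 7.47, 7.67, 7.17, 7.37 and 7.05 and the susceptible pools 7.04, 7.08, 7.69 and 7.01. All 9 stressed pools were below the control mean, but control pools 4 and 5 were exceeded by 2 resilient pools and by susceptible pool 3. The log2 fold change was -0.46 (-0.82 to -0.10, adjusted p = 0.142, exact permutation p = 0.0556) in resilient pools and -0.60 (-0.97 to -0.22, adjusted p = 0.0694, exact permutation p = 0.0476) in susceptible pools. The second was called in every alternative setting, and the first in all but 1, as it ended at -0.36 without control pool 2. The groups under stress differed from each other by -0.14 (-0.52 to 0.24).

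Gabbr1, the GABA-binding subunit of the GABA-B receptor, stood closest to control of the 6 genes in both stressed groups. The control pools lay at 9.02, 8.96, 9.03, 9.03 and 8.97, the resilient pools at 9.04, 9.07, 9.06, 8.95 and 9.26 and the susceptible pools at 9.01, 8.92, 8.97 and 8.99. The log2 fold change was 0.07 (-0.08 to 0.23) in resilient and -0.03 (-0.19 to 0.14) in susceptible pools, so that differences beyond 0.23 on the log2 scale lie outside both intervals. The sign of the susceptible value turned with the scaling of the libraries, at 0.05 with plain read totals and 0.09 with quantile normalization. Gabbr1 overlapped between all groups, as did the other 5 genes. Of all genes, 5.18% had no overlap between resilient and control pools, 10.9% between susceptible and control pools and 0.591% between susceptible and resilient pools.

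**Figure D3:**
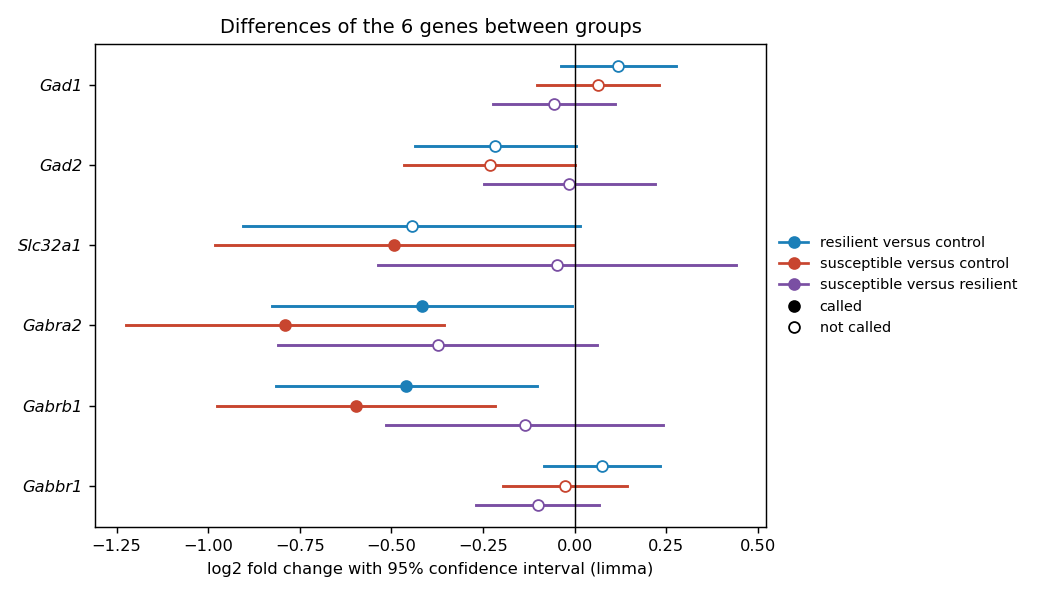
Log2 fold changes of the 6 genes with their 95% confidence intervals from limma; filled points met the call criteria. The intervals of Gabra2 and Gabrb1 lie below 0 in both comparisons with control, those of Gad1 and Gabbr1 include 0 throughout, and no gene was called between susceptible and resilient pools.

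The 6 genes were set beside markers of cell types in the same pools. The log2 of the summed CPM of 9 pan-neuronal markers was 11.47 to 11.63 in control pools, 11.32 to 11.45 in resilient pools and 11.04 to 11.40 in susceptible pools, so that every stressed pool was below every control pool. Relative to the control mean this was -0.18 in resilient and -0.34 in susceptible pools. Of these 9 markers 3 were called lower in resilient pools (Rbfox3, Syn1 and Nefl), where 9.04% of all genes were. In susceptible pools 6 were called lower (the same 3, Snap25, Syt1 and Map2), beside 9.28% of all genes. None was called higher. Stmn2 (0.01 in resilient and 0.03 in susceptible pools), Eno2 (0.10 and -0.02) and Tubb3 (-0.11 and -0.16) were called in neither group, so the list did not fall evenly. In susceptible pools the log2 differences of Gabra2, Gabrb1 and Slc32a1 were more negative than that of this sum, that of Gad2 less so, and those of Gad1 and Gabbr1 close to 0. In these bulk pools fewer GABA neurons and less of an mRNA per neuron cannot be told apart.

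Other markers moved as well. Astrocyte markers summed to 10.55 to 10.79 in control, 10.42 to 10.61 in resilient and 10.14 to 10.48 in susceptible pools. Of the 6 astrocyte markers, Slc1a2, Slc1a3 and Gja1 were called lower in susceptible pools (-0.42, -0.32 and -0.27), Aldh1l1 was called higher with no overlap (0.37), and Aqp4 (0.07) and Gfap (-0.11) were not called. The sum of oligodendrocyte precursor markers stood 0.17 above the control mean in resilient and 0.21 in susceptible pools. Oligodendrocyte markers ran from 11.78 to 12.36 in control and from 11.07 to 11.81 in susceptible pools, and those of choroid plexus and ependyma from 5.47 to 7.68 in control and from 4.24 to 6.09 in susceptible pools, where 6 of 6 were called lower. Striatal projection neuron markers ran from 11.14 to 11.82 in control pools. They ran from 10.03 to 12.01 in resilient pools and from 10.16 to 11.55 in susceptible pools. In each stressed group all 10 of these markers had a negative log2 fold change, and 2 of the 10 were called lower. Their median log2 fold change was -0.52 in resilient and -0.64 in susceptible pools, beside -0.02 and -0.01 over all genes. BNST markers ran from 7.54 to 8.41 in control pools, from 7.45 to 9.19 in resilient pools and from 8.13 to 8.67 in susceptible pools. Prkcd dominated this sum, with a mean of 7.65 in control pools beside 7.94 for the sum. The median log2 fold change of the BNST markers was 0.03 in resilient and 0.12 in susceptible pools. Sst was called lower in both stressed groups, Prkcd higher in resilient pools and Esr1 higher in susceptible pools (0.61). None of the markers measured was at 0 reads throughout a group. Susceptible pool 2 had the lowest pan-neuronal and astrocyte sums and the lowest Gabra2, and without it Gabra2 was still called lower in susceptible pools, at -0.63, but no longer passed the adjusted threshold (adjusted p = 0.172). The part of these differences in tissue content in the values of the 6 genes was not tested.

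**Figure D4:**
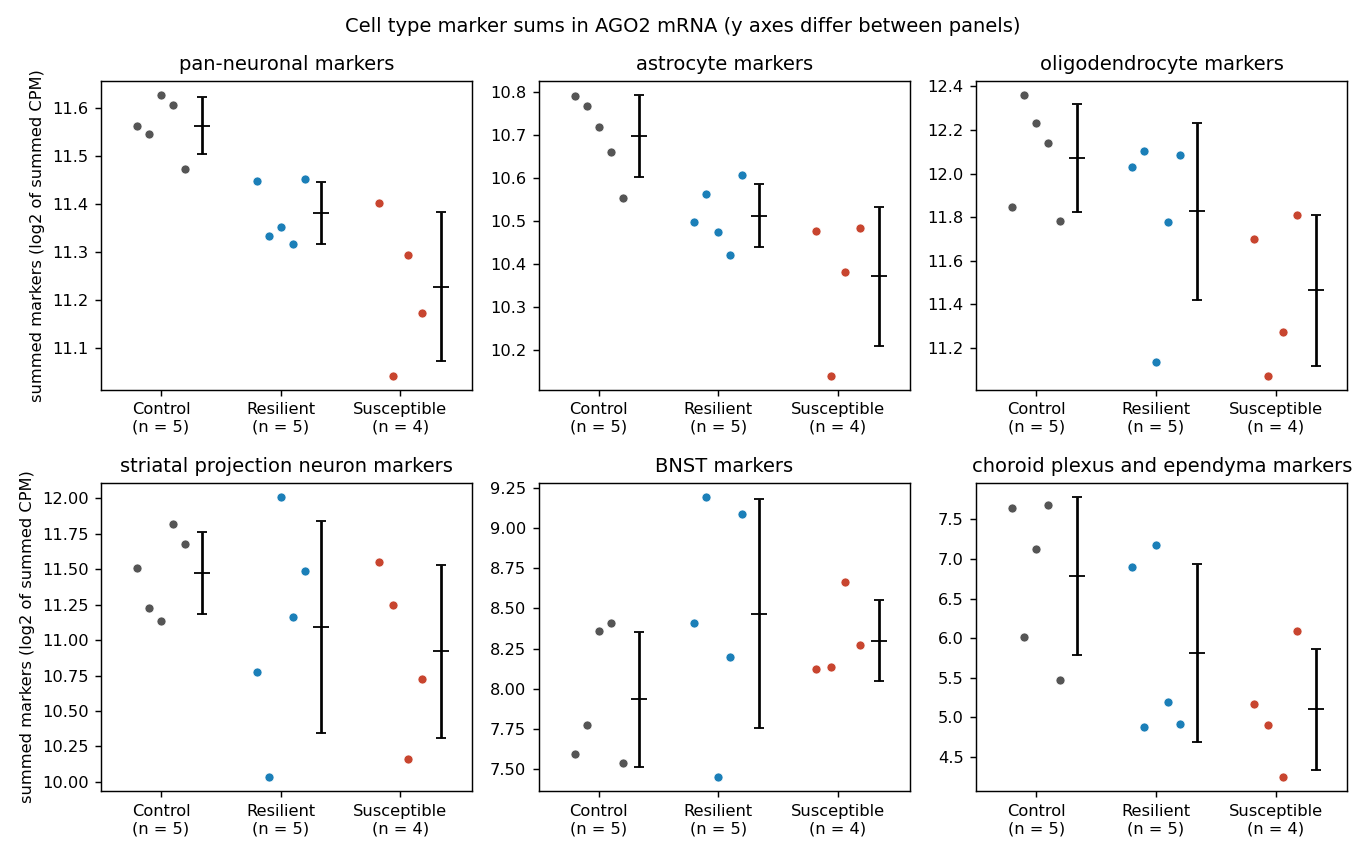
Log2 of the summed CPM of cell type markers in each BNST pool; points are pools, and bars give the group mean and SD, with y axes that differ between panels. Pan-neuronal sums of all resilient and susceptible pools lie below the lowest control pool at 11.47.

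Of the wider GABA pathway, 63 genes were listed and 58 were in the table (Gabra6, Gabrp, Gabrr1, Gabrr3 and Vip were not analysed here). Leaving out the 6 genes above, 14 of 52 were called lower and 1 higher in resilient pools, and 14 of 52 lower and 0 higher in susceptible pools. These are 28.8% and 26.9% called, beside 17.7% and 18.9% of all genes, and the median log2 fold changes were -0.24 and -0.19. Between susceptible and resilient pools 1 was called higher and 1 lower. This describes the list, as no test of a list was made.

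**Figure D5:**
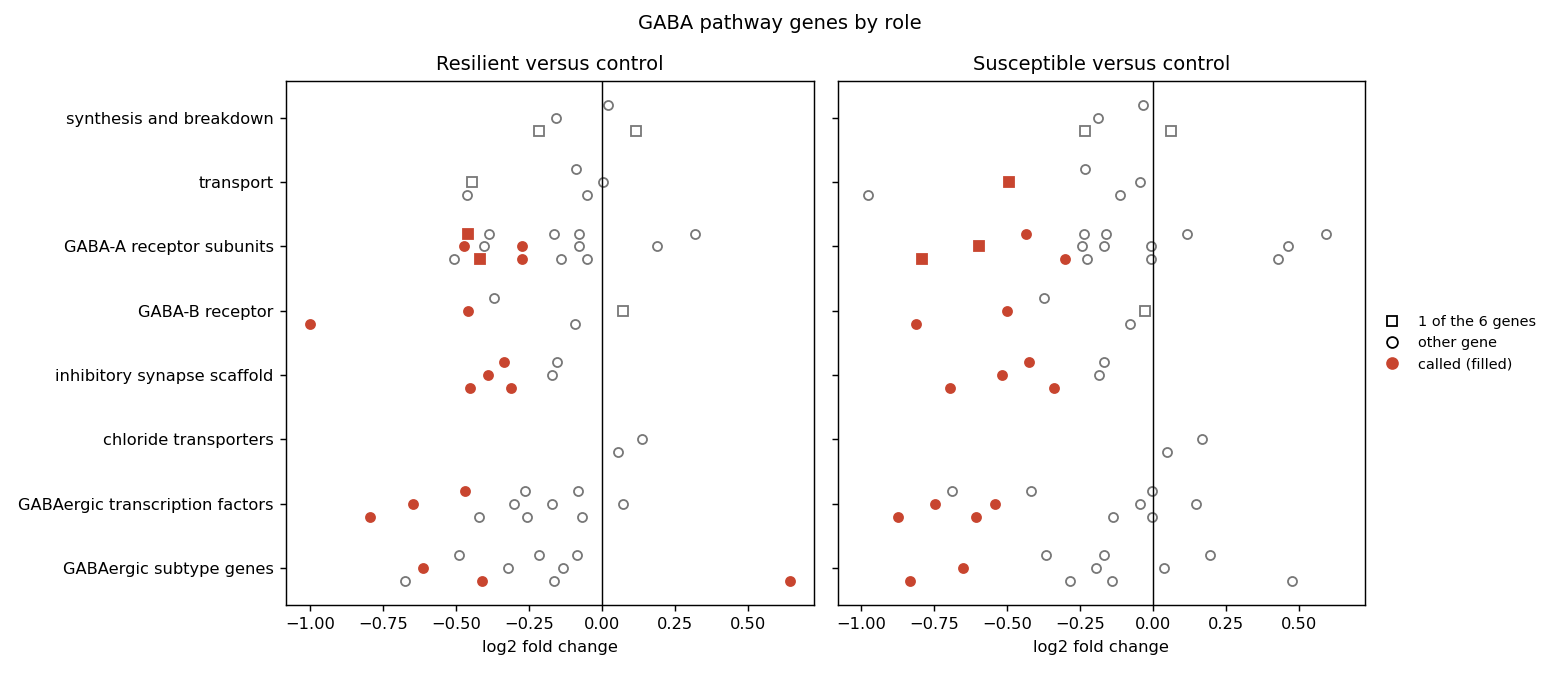
Log2 fold changes of the 58 measured GABA pathway genes by role in resilient and susceptible against control pools; each point is a gene, squares are Gad1, Gad2, Slc32a1, Gabra2, Gabrb1 and Gabbr1, and filled points were called. Called genes lie to the left of 0, except Prkcd in resilient pools.

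Among 15 GABA-A receptor subunits, 5 were called lower in resilient and 4 in susceptible pools, and 0 were called higher. Besides Gabra2 and Gabrb1 these included the beta 2 subunit Gabrb2 (-0.27 in resilient and -0.44 in susceptible pools, adjusted p = 0.0285 for the latter). Gabrb2 was at 7.34, 7.47, 7.56, 7.18 and 7.15 log2 CPM in control pools and at 6.91, 6.77, 7.00 and 6.93 in susceptible pools, with no overlap. The genes that share the chromosome 5 cluster with Gabra2 and Gabrb1 were not called, with Gabrg1 at -0.39 and -0.01 and Gabra4 at -0.08 and -0.24.

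The inhibitory synapse scaffold had the highest share of called genes among the groups with more than 2 genes, at 4 of 6 in both comparisons. Among these were Lhfpl4, which links GABA-A receptors to neuroligin 2 (-0.45 in resilient and -0.69 in susceptible pools, adjusted p = 0.112 and 0.0262), neuroligin 2 itself, Nlgn2, an adhesion protein of inhibitory synapses (-0.39 and -0.52, adjusted p = 0.0803 and 0.0307), and Gabarap, a protein of receptor trafficking and autophagy (-0.33 and -0.34). Lhfpl4 was at 7.76, 7.63, 8.20, 8.23 and 7.79 in control pools, at 7.63, 7.53, 7.29, 7.37 and 7.52 in resilient pools and at 7.56, 6.90, 6.87 and 7.57 in susceptible pools. Neither stressed group overlapped with control for Lhfpl4 or Gabarap. Gphn, which encodes the scaffold protein gephyrin and is named here after its values were seen, was at -0.15 and -0.19 and was not called.

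For GABA-B receptors, 2 of the 3 auxiliary subunits measured were called and neither principal subunit was. Kctd8 was lower at -0.999 in resilient and -0.81 in susceptible pools, and Kctd12 at -0.46 and -0.50, whereas Gabbr1 was not called, as given above. Both belong to the KCTD proteins that set the timing of the GABA-B response. The third, Kctd16, named here after its values were seen, was at -0.37 and -0.37 and was not called. Kctd8 rested on few reads, 9 to 102 per pool. In the synthesis and breakdown group 0 of 4 genes were called, and the gene with the smallest p outside the 6 was the GABA transaminase Abat, at -0.16 and -0.19. In the transport group Slc32a1 was the single call of 5 genes, and the plasma membrane transporter Slc6a11 was at -0.09 and -0.23. Neither of the 2 chloride transporters was called, and Slc12a2, the importer NKCC1, was at 0.14 and 0.17.

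Of 11 transcription factors of GABA neurons 3 were called lower in resilient and 4 in susceptible pools. Sp9 (-0.80 and -0.87), Meis2 (-0.47 and -0.60) and Dlx5 (-0.65 and -0.54) were called in both, and Dlx6 in susceptible pools (-0.75). All 4 are known from the development of forebrain GABA neurons, including those of the striatum. Of 10 genes that mark GABA neuron subtypes, the neuropeptides Sst (-0.41 and -0.65, adjusted p = 0.0482 in susceptible pools) and Npy (-0.61 and -0.83) were called lower in both, while Prkcd, which marks a class of BNST and amygdala neurons, was called higher in resilient pools (0.64) and stood at 0.48 in susceptible pools, not called. Sp9 and Npy rested on few reads, 12 to 64 and 10 to 112 per pool.

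Between susceptible and resilient pools the calls in the pathway were 2 transcription factors, Dlx2 (0.45) and Dlx6 (-0.58). Leaving out the 6 genes, in the groups with no call the gene with the smallest p was Gabrg1 (0.38) among GABA-A subunits, Kctd8 (0.19) for GABA-B receptors, Lhfpl4 (-0.24) for the scaffold, Sst (-0.24) among subtype genes, Slc6a11 (-0.15) for transport, Aldh5a1 (-0.06) for synthesis and breakdown and Slc12a2 (0.03) for chloride transport.

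The miRNAs with a seed match were measured in AGO2 miRNA libraries of 5 control, 5 resilient and 3 susceptible pools. The susceptible ones are numbered 1, 2 and 4, so values for susceptible pools below are given in that order. Of all 788 miRNA entries 9.52% were called in resilient against control, 4.7% in susceptible against control and 3.93% in susceptible against resilient pools. Of the 15 miRNAs with a match in the 6 genes, 2 were called higher and 3 lower in resilient pools, 1 was called lower in susceptible pools, and 1 was called higher in susceptible than in resilient pools. None passed an adjusted p of 0.05 by limma.

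miR-128-3p, the miRNA that matched 5 of the 6 genes, was at 14.32, 14.64, 14.54, 14.91 and 14.88 log2 CPM in control pools, 14.10, 14.34, 14.42, 14.39 and 14.59 in resilient pools and 14.77, 14.56 and 14.67 in susceptible pools. It was called lower in resilient than in control pools, at -0.30 (SE 0.12, adjusted p = 0.305), and higher in susceptible than in resilient pools, at 0.30 (SE 0.14, adjusted p = 0.983), while susceptible and control pools stood level at 0.00. In the first of these comparisons the groups overlapped, as control pools 1 and 3 were below the highest resilient pool. The value is that of 1 of the hairpin copies under which miR-128-3p is listed.

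miR-30a-5p and miR-30e-5p, the miR-30 members searched and matched in Gabra2 and Gabrb1, ran the other way in resilient pools. miR-30e-5p was called higher there, at 0.29 (SE 0.11, adjusted p = 0.303), and miR-30a-5p was at 0.16, not called, and in susceptible pools they were at 0.11 and -0.03. miR-541-5p, matched in Gabrb1 and Gabbr1, was called higher in resilient pools at 0.29. let-7e-5p was called lower in resilient pools at -0.37 (SE 0.12, adjusted p = 0.257). Its resilient pools lay at 15.58 to 16.16 and its control pools at 16.28 to 16.37. The share of all miRNA entries without overlap between these groups was not counted. The other let-7 miRNAs with this seed were not called in resilient pools, with let-7d-5p at -0.21, let-7b-5p at -0.19, let-7i-5p at -0.06 and let-7g-5p at 0.02. miR-92b-3p, matched in Slc32a1, was called lower in both stressed groups, at -0.36 and -0.37.

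Over all genes the log2 fold change varied little with 3′ UTR length. In the 3467 genes with the longest 3′ UTRs (from 2377 bases), which include Gad2, Gabra2 and Gabrb1, the median was -0.07 in resilient and -0.07 in susceptible pools. In the 3467 with the shortest (up to 540 bases) it was 0.03 and 0.06.

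Across the 14 pools the 6 genes did not vary as 1 group. Pearson's r between pairs ran from -0.79 (Gad1 and Gabrb1) to 0.52 (Gad2 and Gabrb1), and after subtracting the group means from -0.81 to 0.33 for the pairs Gad1 with Gabrb1 and Gad1 with Slc32a1. These correlations describe pools that share libraries, and no p is attached to them. Among 6872 other genes that averaged 5 or more in log2 CPM, the patterns most like that of Gad1 were those of Hyou1 (r = 0.88), Cct7 (0.88) and Me3 (0.88), and for Gad2 those of Gda (0.91), Zfp871 (0.91) and Vstm2a (0.91). Slc32a1 was followed most closely by Jph3 (0.95), Vgf (0.95) and Prr12 (0.94), and Gabra2 by Wipf2 (0.92) and Celf5 (0.91). For Gabrb1 they were Dzank1 (0.93), Cdk14 (0.92) and Kcnd3 (0.90), and for Gabbr1 Tnfaip1 (0.84), Eno2 (0.83) and Furin (0.82). With group means subtracted, 0 of the 3 stayed among the 3 nearest for Gabrb1 and for Gabbr1, 1 for Gad1 and for Gabra2, and 2 for Gad2 and for Slc32a1.

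Blood mRNA of 15 B6 mice, 5 per group, held 2 of the 6 genes. Gad1 ran from 3.39 to 5.45 log2 CPM in control mice (median 4.64), from 4.26 to 5.17 in resilient mice (median 4.97) and from 4.70 to 5.97 in susceptible mice (median 5.29). Gabbr1 had medians of 1.73, 1.86 and 1.45, resting on 17 to 116 reads per mouse. Groups overlapped for both genes.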

How the data were processed

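Per the authors' methods, AGO2 mRNA reads were aligned to GRCm38 with STAR and counted over gene exons with HTSeq, genes with at least 1 CPM in 3 samples were kept, and voom gave the deposited log2 CPM values. The authors later adjusted for experimental cohort, which the deposited log2 values do not hold and the labels do not give, so cohort and group cannot be told apart here. miRNAs were quantified with miRDeep2. The authors adjusted the AGO2 miRNA data for detected surrogate variables, which the deposited log2 values do not hold either.

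From the log2 values whole reads were recovered (tolerance 0.0001 reads, 100.0% of values). limma 3.58.1 (R 4.3.3) was fitted with a mean-variance trend to all 14 pools, with two-sided tests. Exact permutation tests used every split of the 2 groups compared. The procedure was also run on simulated data with independent noise in each gene. Such data hold no cohort or tissue differences, so the run cannot show how these affect the calls. The labels do not say how the mice of 1 pool relate to those of another, so p-values measure only the spread between these pools.

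The 6 genes, the pathway list, the marker lists and the naming rules were chosen with earlier results of these data known. Named were the 6 genes, other pathway genes called or, in a role without a call, with the smallest p, the 3 genes most correlated with each of the 6, and matched miRNAs among the 20 most abundant in controls. Some genes that the rule names are not reported here. Matches were sought in 3′ UTRs of GENCODE M21. Blood miRNA and 10 D2 blood mRNA columns were not used.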

Additional observations from a re-analysis of the deposited data

Results flagged for a closer look

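Of 18 groups of pools (6 genes in 3 groups), 1 held a pool that stood far from the others by Dixon's test at the 95% level, which chance flags in about 1 of 20 groups. This was Gabrb1 in susceptible pool 3, at 7.69 log2 CPM against 7.01 to 7.08 in the other susceptible pools. Without it the log2 fold change of Gabrb1 in susceptible against control pools was -0.76.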

How the results depend on the processing

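The log2 differences of Gabra2 and Gabrb1 in susceptible against control pools met the call criteria in every alternative fit, though for Gabra2 not always the adjusted threshold (adjusted p = 0.0967 without the variance trend and 0.0655 with a replicate block; -0.96 to -0.63 and -0.76 to -0.49 with single pools left out). Of 580 alternative values over all results, 492 kept their direction and side of the threshold or stayed near their value, 26 lost and 12 gained a call, 16 reversed and 34 moved. Causes were not tested, except that an adjusted p is stricter by construction.

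Of the 6 genes, 2 were called in resilient against control pools, and this was 1 with a minimum mean log2 CPM of 2, 1 without the variance trend, 0 by adjusted p and 3 with only the groups compared (1 to 2 with single pools left out). In susceptible against control pools 3 became 1 by adjusted p (2 to 4), and in susceptible against resilient pools 0 became 1 with sample weights (0 to 1). The pathway counts were 17 to 0, 17 to 5 and 2 to 0 by adjusted p, and 11 to 19, 14 to 18 and 0 to 6 with single pools left out. The last was 1 with plain totals, the filter, no trend or only the groups compared.

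Gabra2 in resilient pools lost its call with the filter (-0.42), without the trend (-0.42) and with sample weights (-0.34), while Slc32a1 gained one with sample weights (-0.48) and with only the groups compared (-0.44). Slc32a1 in susceptible pools lost it with plain totals (-0.42), the filter (-0.49), no trend (-0.49) and voom weights (-0.48). Between susceptible and resilient pools Gabra2 was called with sample weights (-0.47). Signs reversed for Gabbr1 in susceptible against control pools (0.086 with quantile normalization, 0.045 with plain totals) and, between susceptible and resilient pools, for Gad1 (0.051 and 0.022), Gad2 (0.054 and 0.063), Gabbr1 (0.037, quantile) and Slc32a1 (0.029 with plain totals, 0.036 with sample weights).

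With single pools left out, the resilient differences ran from -0.27 to -0.16 for Gad2, -0.59 to -0.33 for Slc32a1, -0.54 to -0.26 for Gabra2 and -0.56 to -0.36 for Gabrb1. The susceptible ones ran from -0.33 to -0.17 for Gad2 and -0.64 to -0.23 for Slc32a1. Between the stressed groups they were -0.086 to 0.0021 for Gad1, -0.11 to 0.049 for Gad2, -0.19 to 0.21 for Slc32a1 and -0.54 to -0.21 for Gabra2.

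Same-numbered pools did not deviate together (r from -0.28 to 0.30 over 13 pairs), so the numbers are not shown to pair pools. With a replicate block Slc32a1 in susceptible pools lost its call (-0.50) and the pathway count between stressed groups was 1, and 22 of 24 values kept their direction and side of the threshold. Counting matches with an A opposite the first miRNA base alone left 6 of 15 miRNAs and 6 of 27 positions, and the 40 most abundant miRNAs gave 26 and 48.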
